A study of Caenorhabditis elegans with 9 samples.

Results

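The comparison described here set all 6 arrays of prg-1 prg-2 double mutant Caenorhabditis elegans against the 3 arrays of wild-type animals, with a timing factor of 2 levels in the model. Its members were all 9 of the 9 arrays in the series, and each array held RNA from pelleted whole animals labelled as young adults. The arrays were Affymetrix 3' expression arrays that measure each gene by 1 or more probe sets, and every level below is a log2 value made by RMA, which puts all arrays on 1 distribution. The wild type was strain N2. The first mutant, strain MT14769, carried prg-1(n4357) and prg-2(n4358), and the second, strain SX9, carried prg-1(n4503) and prg-2(nDf57). Each of the 3 groups had 3 arrays, no array came from a single mutant, and both mutant strains carried lesions in both genes, with different alleles. Each mutant genotype was 1 strain, so its alleles and the rest of its genetic background cannot be told apart. Whether the replicates were grown separately is not in the labels, and the p-values therefore reflect the spread between these samples, which may be technical.

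PRG-1 is the Piwi protein of the worm germline and PRG-2 is its close relative. Piwi proteins bind piRNAs, short RNAs that recognise messenger RNAs by base pairing, and in worms this recognition recruits RNA-dependent RNA polymerases whose products, carried by other Argonaute proteins, silence the target. Worms of nominally equal age can differ by hours around the last moult, when larval cuticle is replaced by adult cuticle and the gonad turns from making sperm to making oocytes. The collagen gene col-19 is switched on in the skin at that moult by the heterochronic pathway, so its level dates an animal relative to the moult.

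The timing level of an array was set by its col-19 level, above or below 5.5. In wild type col-19 read 3.53, 7.29 and 4.796 on replicates 1 to 3, in n4357 n4358 it read 3.98, 3.64 and 6.04, and in n4503 nDf57 it read 6.72, 3.42 and 3.49. Each genotype thus had 1 array above the threshold and 2 below it. The nearest values on either side were 4.796 and 6.04. Those above were wild-type replicate 2, replicate 3 of n4357 n4358 and replicate 1 of n4503 nDf57. The threshold was chosen on these arrays, so the p-values take the split as given.

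**Figure D1:**
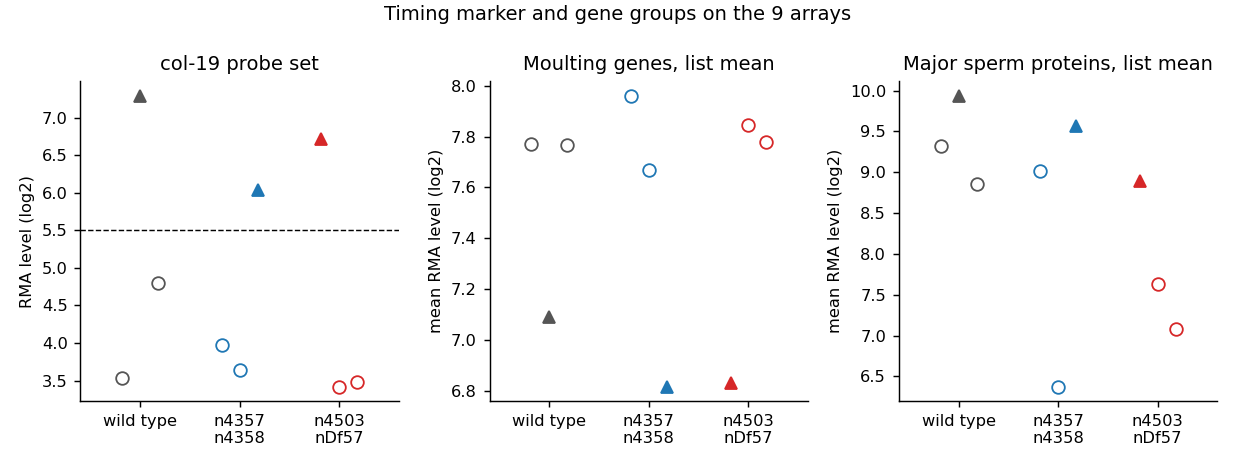
RMA level (log2) of col-19, and mean RMA level of 35 moulting genes and of 23 major sperm protein genes, for each array of wild type, n4357 n4358 and n4503 nDf57. Filled triangles are the 3 arrays above the dashed col-19 threshold of 5.5, open circles the 6 below it. The moulting genes were lower on every triangle (6.82 to 7.09) than on any circle (7.67 to 7.96).

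Gene groups that the rule did not use were read on the same arrays as a description of the split. The mean level of 35 moulting genes was 6.82 to 7.09 on the 3 arrays above the threshold and 7.67 to 7.96 on the 6 below it. These encode enzymes and matrix proteins made while a new cuticle is built. The mean of 13 adult cuticle genes, col-19 not among them, was 8.44, 10.06 and 9.23 in wild type, 9.11, 8.33 and 9.96 in the n4357 n4358 strain and 9.90, 8.37 and 8.39 in n4503 nDf57. For this group too the 3 arrays above the threshold read higher than the other 6, and wild-type replicate 3 was the highest of the 6. The label of young adult was the same for all 9, although col-19, a marker of adult skin, separated them in this way.

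The first principal component of the within-group deviations held 59.8% of their variance and placed the arrays by timing level, at 0.28 to 0.58 for the 3 arrays above and at -0.32 to -0.12 for the others. Because each genotype had 1 array above and 2 below, the timing factor left every difference between mutants and wild type as it was and altered only the residual spread. The median residual SD over 22548 probe sets was 0.162 log2 with the factor and 0.199 without it, and 71.1% of probe sets had the smaller SD with it. Array medians lay between 4.76 and 4.83, and the hybridisation controls averaged 10.1 to 10.3 in wild type and 9.54 to 10.4 in the mutants. The 3' minus 5' signal (log2) of the RNA integrity probes for actin was 0.30 to 0.59 in wild type and 0.22 to 0.42 in the mutants. For GAPDH it was -0.11 to -0.007 in wild type and -0.42 to -0.098 in the mutants. The part of these control differences in the results was not tested.

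With the timing factor, 1 of 22548 probe sets was higher in the mutants after Benjamini-Hochberg adjustment in limma (0.00443% of those tested) and 0 were lower. That gene was bath-45. An unadjusted p under 0.05 was reached by 769 higher probe sets (3.41%) and 767 lower ones (3.4%), 1536 in all (6.81%). Without the factor 0 were called and 815 had an unadjusted p under 0.05 (3.61%), of which 810 were among the 1536. An even spread of p-values would place 1127 probe sets there. The count of 1536 moved with single arrays and was 781 without wild-type replicate 2, 1079 without wild-type replicate 3 and 1105 without n4503 nDf57 replicate 2, all below an even spread, and 2637 without wild-type replicate 1. For an unadjusted p under 0.001 the counts were 51 with the factor and 20 without it, 19 of them shared.

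**Figure D2:**
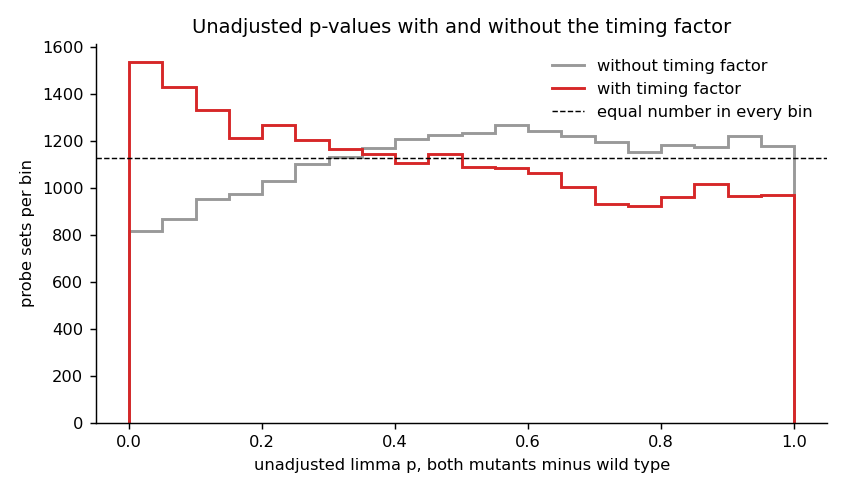
Number of probe sets in each bin of unadjusted limma p for both mutants against wild type, with the timing factor (red) and without it (grey). The lowest bin held 1536 probe sets with the factor and 815 without it, against the dashed line at 1127 that marks equal bins.

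The gene that rose, bath-45, encodes a protein with BTB and MATH domains and is known as a transcript that C. elegans piRNAs silence. Its level was 4.38, 4.50 and 4.62 in wild type, 6.04, 5.77 and 5.43 in the n4357 n4358 strain and 6.10, 6.39 and 6.25 in n4503 nDf57. The 6 mutant arrays were each higher than any of the 3 wild-type arrays, and the lowest mutant array, n4357 n4358 replicate 3, was 1 of those above the col-19 threshold. The difference was 1.496 ± 0.12 log2 (SE), a 2.82-fold higher level (limma with the timing factor, adjusted p = 0.0275). Since whole animals were measured, more cells with the transcript and more transcript per cell cannot be told apart, for this gene or any other below.

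The bath-45 difference was positive at both timing levels and in both strains. It was 1.27 among the 3 arrays above the threshold and 1.61 among the 6 below it, and the test of the difference between levels gave an unadjusted p of 0.398. By strain it was 1.25 in the n4357 n4358 strain and 1.75 in n4503 nDf57. The strains differed by 0.50, with an unadjusted limma p of 0.00614 and an adjusted p of 0.712. An exact two-sided permutation test that kept genotype labels within timing levels gave p = 0.0222, the smallest that its 45 splits allow, or 0.0889 adjusted over the 4 genes so tested. The call rested on the residual spread: without the timing factor the adjusted p was 0.0907, and it was 0.0411 to 0.224 when 1 array was left out, passing in 1 of 9 cases, the one without n4357 n4358 replicate 3.

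The other genes tested singly were prg-1, prg-2 and xol-1. The prg-1 probe set, which by its name may also hybridise with related transcripts, read 6.93, 6.13 and 5.40 in wild type, 6.74, 7.94 and 5.47 in the n4357 n4358 strain and 7.50, 6.72 and 7.07 in n4503 nDf57. The groups overlapped, with a difference of 0.75 ± 0.51 (adjusted p = 0.805, exact p = 0.267) that was 0.26 without wild-type replicate 3 and 1.11 without n4357 n4358 replicate 3. The prg-2 level was 6.53, 6.35 and 6.005 in wild type, 5.46, 6.10 and 6.04 in the n4357 n4358 strain and 6.27, 5.87 and 5.95 in n4503 nDf57, which also overlap. Its difference was -0.35 ± 0.17 (adjusted p = 0.745, exact p = 0.111), and -0.17 without wild-type replicate 1. Where the probes lie relative to the lesions was not examined, so these levels do not check the genotype. The sex-determination switch gene xol-1, another known piRNA target, stayed between 2.80 and 3.09 on all 9 arrays, among the low levels of the array, with a difference of 0.03 ± 0.09 (adjusted p = 0.955, exact p = 0.733).

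**Figure D3:**
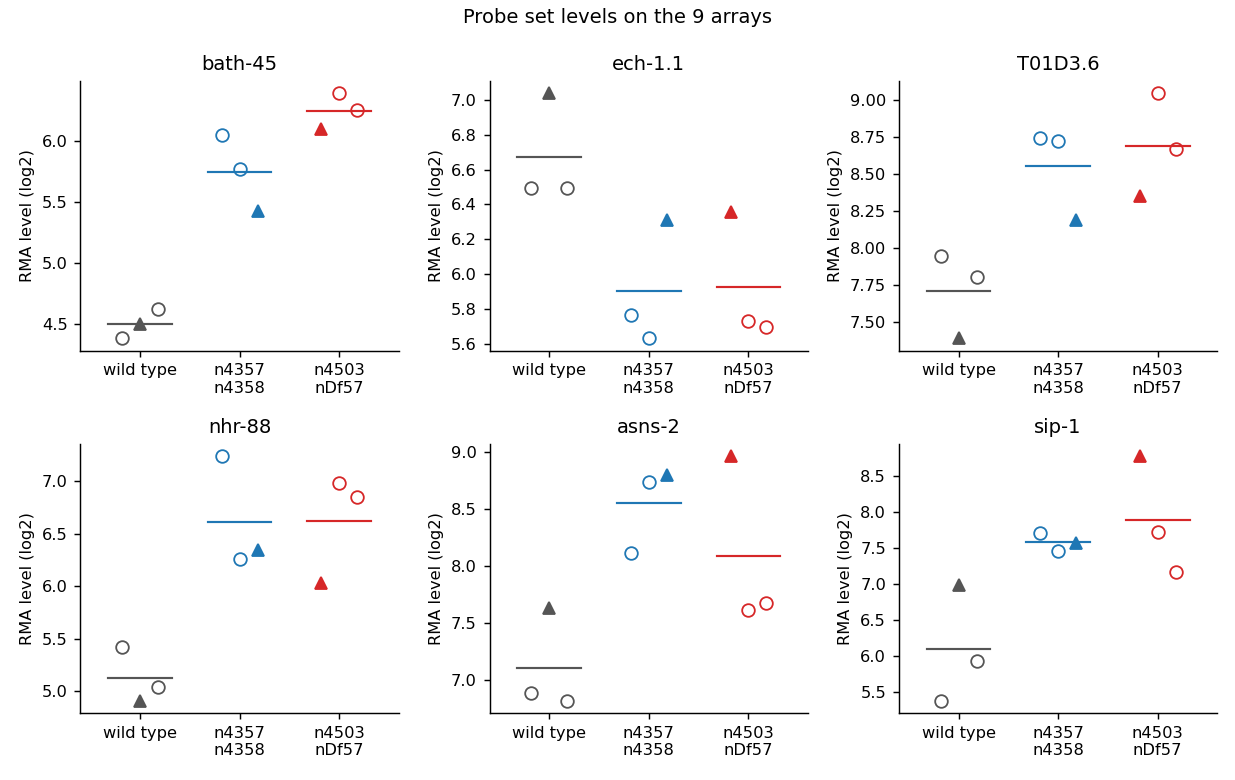
RMA level (log2) of bath-45, ech-1.1, T01D3.6, nhr-88, asns-2 and sip-1 on each array, with the group mean as a line. Filled triangles are arrays above the col-19 threshold and open circles those below it. The mutant bath-45 points start at 5.43 and the wild-type points end at 4.62.

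After bath-45 the smallest p-values belonged to ech-1.1, an enzyme gene of mitochondrial fatty acid beta-oxidation. Its level was 6.49, 7.04 and 6.49 in wild type, 5.77, 5.63 and 6.31 in the n4357 n4358 strain and 6.35, 5.73 and 5.70 in n4503 nDf57. Within each timing level all mutant arrays lay below wild type, and they did so over all 9 arrays as well. The difference of -0.76 ± 0.07 did not pass (adjusted p = 0.0546). A second ech-1.1 probe set gave -0.89 ± 0.09 with the same adjusted p, while the remaining one, with a mean level of 2.83, gave 0.10. The 3 arrays above the threshold were each the highest of their genotype, and the residual SD of ech-1.1 was 0.051 with the timing factor and 0.348 without it.

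Of the 10 other genes with the smallest p-values on the higher side, T01D3.6 came first. It read 7.95, 7.39 and 7.81 in wild type, 8.75, 8.72 and 8.19 in the n4357 n4358 strain and 8.35, 9.05 and 8.67 in n4503 nDf57. Every mutant array exceeded every wild-type array, and the difference was 0.91 ± 0.10 (adjusted p = 0.0730). The nuclear hormone receptor gene nhr-88 had 1 probe set at 5.42, 4.90 and 5.04 in wild type and at 6.03 to 7.24 in the mutants, a difference of 1.496 ± 0.22 (adjusted p = 0.297). By its name this probe set may also hybridise with related transcripts. The 3 other probe sets that name nhr-88 alone gave 0.27, -0.04 and 0.08, so the probe sets of this gene disagree. A further probe set, which names both ZC239.1 and nhr-88, gave 1.99 when array weights were used. Which transcript these probe sets measured was not tested.

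The small heat shock gene sip-1, a chaperone known from oocytes and embryos, had the largest difference among these genes. Its level was 5.37, 6.99 and 5.93 in wild type, 7.71, 7.45 and 7.58 in the n4357 n4358 strain and 8.78, 7.73 and 7.17 in n4503 nDf57. The groups did not overlap, although wild-type replicate 2 came close to the lowest mutant array. The difference was 1.64 ± 0.27 (adjusted p = 0.374), and a second, brighter probe set gave 1.56 ± 0.29. On that probe set the groups overlapped, with wild-type replicate 2 at 7.753 and n4503 nDf57 replicate 3 at 7.729, and were apart within each timing level. The asparagine synthetase gene asns-2 read 6.88, 7.63 and 6.82 in wild type, 8.12, 8.73 and 8.80 in the n4357 n4358 strain and 8.96, 7.61 and 7.68 in n4503 nDf57. Over all arrays these groups overlap by a narrow margin, and within each timing level they do not. Its difference was 1.21 ± 0.19 (adjusted p = 0.334).

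Smaller differences on the higher side were 0.64 for mak-1, a MAPK-activated protein kinase, 0.62 for ugt-64, a UDP-glucuronosyltransferase, and 0.72 for mps-2, an accessory subunit of potassium channels. The 5 probe sets of mps-2 ranged from 0.48 to 0.72. By their names each of these 5 may also hybridise with other transcripts, so they may not be separate measurements. T11F9.10 differed by 0.70, F59A7.2 by 0.91 and F32D8.12 by 0.84. F32D8.12 stood apart from the rest in that its difference was 0.22 in the n4357 n4358 strain and 1.45 in n4503 nDf57, and the mutant and wild-type arrays overlapped below the threshold but not above it. The adjusted p of these 6 genes ranged from 0.274 to 0.366.

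On the lower side, lys-4, a lysozyme gene, and T23G11.1 had the largest differences among the 10 genes with the smallest p-values. The lys-4 level was 9.99, 11.49 and 10.15 in wild type, 8.72, 8.11 and 8.81 in the n4357 n4358 strain and 9.72, 9.79 and 9.79 in n4503 nDf57. The n4503 nDf57 arrays were close to the lower wild-type arrays, and the n4357 n4358 arrays were further away. The difference was -1.38 ± 0.25 (adjusted p = 0.380), and it was -1.58 without wild-type replicate 1 and -0.96 without wild-type replicate 2. T23G11.1 read 6.23, 6.86 and 6.51 in wild type, 5.74, 4.40 and 5.57 in the n4357 n4358 strain and 5.35, 4.98 and 4.805 in n4503 nDf57, with no overlap and a difference of -1.39 ± 0.25 (adjusted p = 0.380).

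The rest of the lower genes differed by smaller amounts. C07A9.9 differed by -0.94, gtnt-31 by -0.74, M01G12.9 by -0.69 and C31H1.5 by -0.58. The alpha/beta hydrolase gene abhd-3.1 differed by -0.45, and its second probe set by -0.42. W02B12.1 differed by -0.43 and the nuclear hormone receptor gene nhr-97 by -0.42. The adjusted p of these 7 genes ranged from 0.366 to 0.380.

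The genes nhr-97, mak-1 and F59A7.2 were among those whose unadjusted p fell most on adding the timing factor. They were picked for that and do not show its effect on a typical gene. The nhr-97 level was 7.80, 7.002 and 7.74 in wild type, 7.36, 7.41 and 6.53 in the n4357 n4358 strain and 6.53, 7.34 and 7.41 in n4503 nDf57. In every genotype the array above the threshold was the lowest, so the groups overlapped over all 9 arrays and were apart within each level. The residual SD was 0.0418 with the factor and 0.476 without it, and the unadjusted p was 0.000356 and 0.192. A second nhr-97 probe set of similar brightness gave -0.37 ± 0.14, and on it the groups were not apart within both levels. For mak-1 the unadjusted p was 0.000119 with the factor and 0.0238 without, and for F59A7.2 it was 0.00017 and 0.0854.

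All 21 genes (bath-45 and these 20) had the same sign in both strains and at both timing levels, which is in part what a small p selects. In 20 of them the groups were apart within both timing levels, and in 13 over all 9 arrays. The genes were picked by the p of this same contrast, so these counts too are in part set by that choice. Over all probe sets 588 were apart within both levels on the higher side (2.61%) and 399 on the lower side (1.77%), while 1.05% and 0.803% were apart over all 9 arrays. Without the timing factor 18 of the 21 had an unadjusted limma p under 0.05. The differences are the same in both fits, so this is not a separate check.

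**Figure D4:**
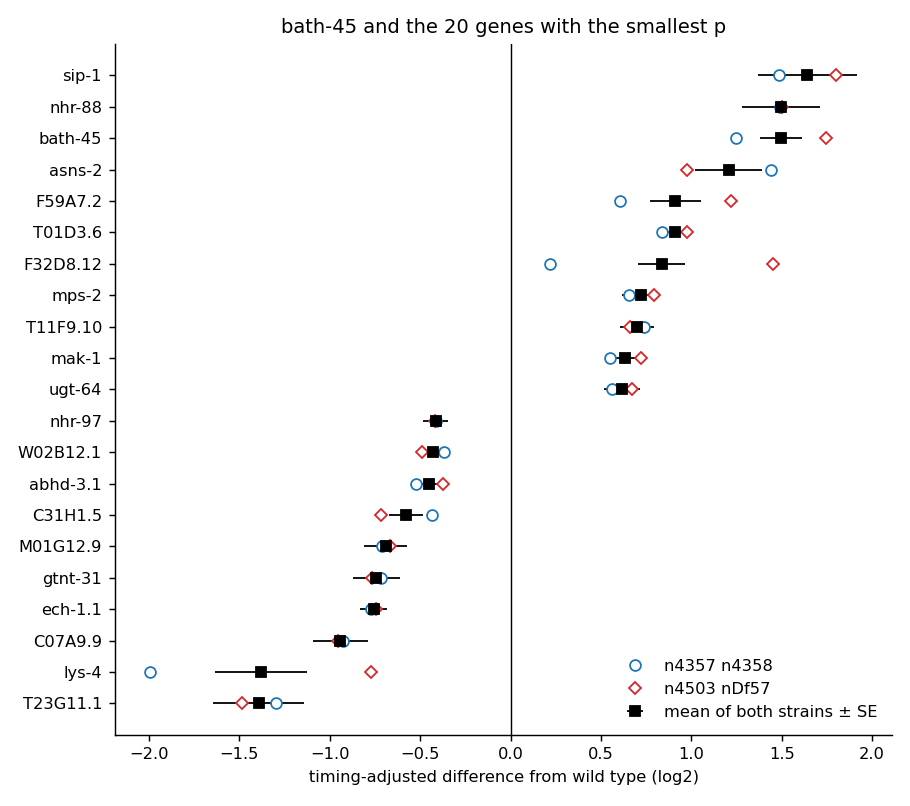
Timing-adjusted difference from wild type (log2) for bath-45 and the 10 other genes with the smallest p on each side, as the mean of both strains with its SE (black squares) and by strain (blue circles n4357 n4358, red diamonds n4503 nDf57). The strains lie on the same side of 0 for all 21 genes, with F32D8.12 (0.22 and 1.45) and lys-4 (-1.99 and -0.77) the furthest apart.

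The lists below group genes by role, each gene represented by its brightest probe set. Apart from bath-45, 0 members of any list passed the adjusted threshold. Over all 17118 genes the median difference was 0.02, 9480 were positive, and 567 higher and 652 lower genes had an unadjusted p under 0.05 (7.12%). The timing factor was in every one of these fits.

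Among 20 piRNA pathway factors 12 were positive, the median was 0.13, and 2 higher and 1 lower gene had an unadjusted p under 0.05. Leaving out 1 array moved the median between 0.04 and 0.20, and the counts to 5 higher and 2 lower without n4357 n4358 replicate 3, 4 and 1 without wild-type replicate 1, 2 and 3 without n4357 n4358 replicate 2, and 1 and 0 without wild-type replicate 2. The first of the 3 genes was parn-1, the exonuclease that trims piRNA 3' ends. It read 5.35, 5.08 and 5.38 in wild type, 5.99, 5.86 and 5.71 in the n4357 n4358 strain and 5.80, 5.88 and 5.51 in n4503 nDf57, with no overlap and a difference of 0.52 ± 0.11 (adjusted p = 0.496). The others were pid-2 at 0.39 and tost-1 at -0.44, neither with an adjusted p under 0.70. The lower tost-1 difference was -0.94 above the threshold and -0.19 below it.

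The list of 27 germline secondary small RNA factors covers the making and carrying of secondary silencing RNAs, not only those downstream of piRNAs. Its median was 0.02, with 14 positive and 2 at an unadjusted p under 0.05, both higher. Without wild-type replicate 1 the counts were 6 higher and 3 lower, without n4357 n4358 replicate 3 they were 6 and 0, and the median with 1 array left out was 0.003 to 0.10. One of the 2 was the Argonaute gene sago-1, whose protein carries secondary small RNAs, at 0.33 ± 0.09 (adjusted p = 0.583), and the other rde-10, an RNA interference factor, at 0.28 ± 0.10. Among the Argonautes, wago-1, which binds secondary small RNAs in the germline, differed by 0.65 ± 0.34, and hrde-1, the Argonaute of inherited nuclear silencing, by 0.29 ± 0.13. Both were picked after their values were seen, and 13 of the 27 factors were negative, down to -0.47. Among 17 P granule proteins, parts of the germline condensates in which PRG-1 resides, 14 were positive with a median of 0.14, led by glh-4, a helicase of these granules, at 0.28 ± 0.09 (adjusted p = 0.675). With 1 array left out this median was 0.08 to 0.24. At an unadjusted p under 0.05 there were 1 higher and 1 lower gene in this list. These counts became 6 and 1 without wild-type replicate 1, and 4 and 0 without n4357 n4358 replicate 3. The 17 genes of histone methylation and nuclear silencing had a median of 0.06 and 0 at an unadjusted p under 0.05. The 17 genes of primary RNA interference and microRNA function had a median of -0.003 and 1 gene at that level, eri-3 at 0.28.

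Few other members of the bath-45 family had small p-values. Of 103 BATH, MATH and BTB genes 72 were positive, the median was 0.04, and 5 higher genes had an unadjusted p under 0.05 (4.85%), with 0 lower. Without wild-type replicate 1 there were 6 higher and 7 lower, and without wild-type replicate 2 there were 3 higher. After bath-45 these were btb-17 at 0.45, bath-26 at 0.42, bath-13 at 0.28 and bath-36 at 0.21. The 310 F-box genes, another large family of ubiquitin ligase adaptors, had a median of 0.02 and 2 higher and 4 lower genes at that level, led by fbxc-50 at 0.35. The 20 sex determination genes had a median of 0.03 and 0 at that level. Their largest estimate was fog-3, which commits germ cells to sperm, at 0.77 ± 0.39, and 0.36 without wild-type replicate 3.

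All 23 major sperm protein genes, the cytoskeletal proteins of nematode sperm, had negative differences with a median of -1.33, and 15 of them had an unadjusted p under 0.05 with the timing factor against 0 without it. By their names these probe sets may each hybridise with several members of the family, and so are not separate measurements. The list mean by array was 9.33, 9.94 and 8.85 in wild type, 9.01, 6.37 and 9.57 in the n4357 n4358 strain and 8.89, 7.63 and 7.08 in n4503 nDf57. n4357 n4358 replicate 2 was far below the others, n4503 nDf57 replicates 2 and 3 came next, and the remaining mutant arrays were among the wild-type values. The list median was -0.69 among the arrays above the threshold and -1.62 among those below it, and -0.90 without n4357 n4358 replicate 2. The count at an unadjusted p under 0.05 was 23 without that array, 23 without n4357 n4358 replicate 1, 10 without n4503 nDf57 replicate 1, 6 without wild-type replicate 3, 5 without n4503 nDf57 replicate 3 and 1 without wild-type replicate 1. In the list msp-32 had the smallest p, at -0.79 ± 0.16 (adjusted p = 0.459), by strain -0.42 and -1.15. A dimmer msp-32 probe set, not marked by its name as open to several genes, gave -0.23 ± 0.15. What part the sperm gene level of an array has in the other differences was not tested.

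Of 34 other sperm genes 24 were negative, with a median of -0.14 and 10 lower genes at an unadjusted p under 0.05, or 5 without wild-type replicate 3. They included nspd-1 at -1.64 and nspd-2 at -1.64, members of a family of small sperm-enriched proteins. htas-1, the histone H2A variant of sperm, read 4.27, 5.44 and 4.55 in wild type and 3.83 to 4.03 in all 6 mutant arrays. Its groups did not overlap, and wild-type replicate 2 was well above every other array. The difference was -0.83 ± 0.20 (adjusted p = 0.571), -1.55 above the threshold and -0.47 below it. Leaving out wild-type replicate 2, the only wild-type array above the threshold, returns the value below it by construction.

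Among the lists of oocyte, meiotic and embryo genes the medians lay between -0.01 and 0.10. For 32 genes of the oocyte and eggshell the median was 0.04, with 1 at an unadjusted p under 0.05, mex-6, which patterns the embryo, at 0.25 ± 0.08. A dimmer mex-6 probe set gave -0.18 ± 0.15, so the sign differs between them. The 33 meiotic chromosome proteins had 23 positive with a median of 0.10, and syp-4, of the synaptonemal complex, was the 1 gene at that level, at 0.31. Without wild-type replicate 1 there were 5 higher and 2 lower genes. For 22 genes of the zygotic embryo the median was -0.01. The 5 vitellogenins, yolk proteins made in the adult intestine, were all negative with a median of -0.48, or -0.91 without wild-type replicate 1. vit-4 read 4.90, 7.87 and 7.05 in wild type, 4.29, 5.01 and 5.61 in the n4357 n4358 strain and 6.06, 4.53 and 4.48 in n4503 nDf57. Wild-type replicates 2 and 3 were above all mutants and wild-type replicate 1 was among them. Its difference was -1.61 ± 0.43 (adjusted p = 0.587), -2.27 without wild-type replicate 1 and -1.1004 without wild-type replicate 3. Of the other vit-4 probe sets, 1 gave -1.64 ± 0.53 and the dimmest gave 0.07 ± 0.10.

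Genes tied to the moult had a much smaller residual spread once the timing factor was fitted. For the 35 moulting genes the median residual SD was 0.324 with the factor and 0.763 without it, and for 145 cuticle collagens 0.258 and 0.536. The moulting genes had a median difference of -0.08, and 1 of them, wrt-5, a hedgehog-related protein, had an unadjusted p under 0.05, at 0.27 ± 0.10. That count became 4 higher and 3 lower without wild-type replicate 1 and 0 and 3 without wild-type replicate 3. The 13 adult cuticle genes had 12 negative, a median of -0.23 and 0 at that level. col-19 itself, which set the levels, differed by -0.66, and wild-type replicate 2 had the highest reading of the series. The split therefore left a col-19 difference between genotypes of -0.92 above the threshold and -0.53 below it, and what part this has in the other differences was not tested. The collagen col-181 differed by -0.79 ± 0.45, or -1.42 without wild-type replicate 1 and -0.22 without wild-type replicate 3, and by 0.08 when the col-19 level was used as a continuous covariate.

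Among the 145 cuticle collagens 5 higher genes and 1 lower gene had an unadjusted p under 0.05, and 10 higher and 12 lower without wild-type replicate 1. The smallest p was that of col-91. It read 5.53, 7.72 and 5.77 in wild type, 6.15, 6.28 and 7.83 in the n4357 n4358 strain and 8.31, 6.23 and 6.08 in n4503 nDf57. Within each level the mutants lay above wild type, although over all 9 arrays wild-type replicate 2 was above 4 mutant arrays. The difference was 0.47 ± 0.12 (adjusted p = 0.580). The 16 heterochronic timing genes had a median of 0.02 and 0 at that level, and blmp-1, a transcription factor of that pathway, differed by -0.42 ± 0.24, or -0.13 without wild-type replicate 2, while its other probe set gave 0.05 ± 0.09.

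The DAF-16 targets, genes under the transcription factor at the end of the insulin pathway, had the highest list median. Of 19 genes 15 were positive, the median was 0.31, and 8 higher and 1 lower gene had an unadjusted p under 0.05. Besides sip-1 these were dod-6 at 1.51, dod-3 at 1.29, the lysozyme gene lys-7 at 1.103, nnt-1 at 0.66, the metallothionein mtl-1 at 0.60, and the glycolytic genes gpd-3 at 0.40 and gpd-2 at 0.31. The lower one was fat-7, a fatty acid desaturase, at -0.96, with -1.99 above the threshold and -0.44 below it. The adjusted p of these 9 genes ranged from 0.380 to 0.731, and 8 of 19 were already under an unadjusted 0.05 without the timing factor. The list median was 0.46 above the threshold and 0.25 below it.

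dod-6 read 8.14, 6.31 and 6.93 in wild type, 9.46, 8.58 and 7.94 in the n4357 n4358 strain and 7.80, 9.45 and 8.57 in n4503 nDf57. Wild-type replicate 1 was above 2 mutant arrays, both of them above the threshold, and within levels the groups were apart. lys-7 read 7.39, 6.81 and 6.82 in wild type, 8.33, 8.81 and 7.16 in the n4357 n4358 strain and 7.39, 8.70 and 8.28 in n4503 nDf57. Its difference was 0.46 above the threshold and 1.42 below it. Classical members such as sod-3, a superoxide dismutase, and hsp-12.6, a small heat shock protein, differed by 0.01 ± 0.09 and -0.01 ± 0.11.

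**Figure D5:**
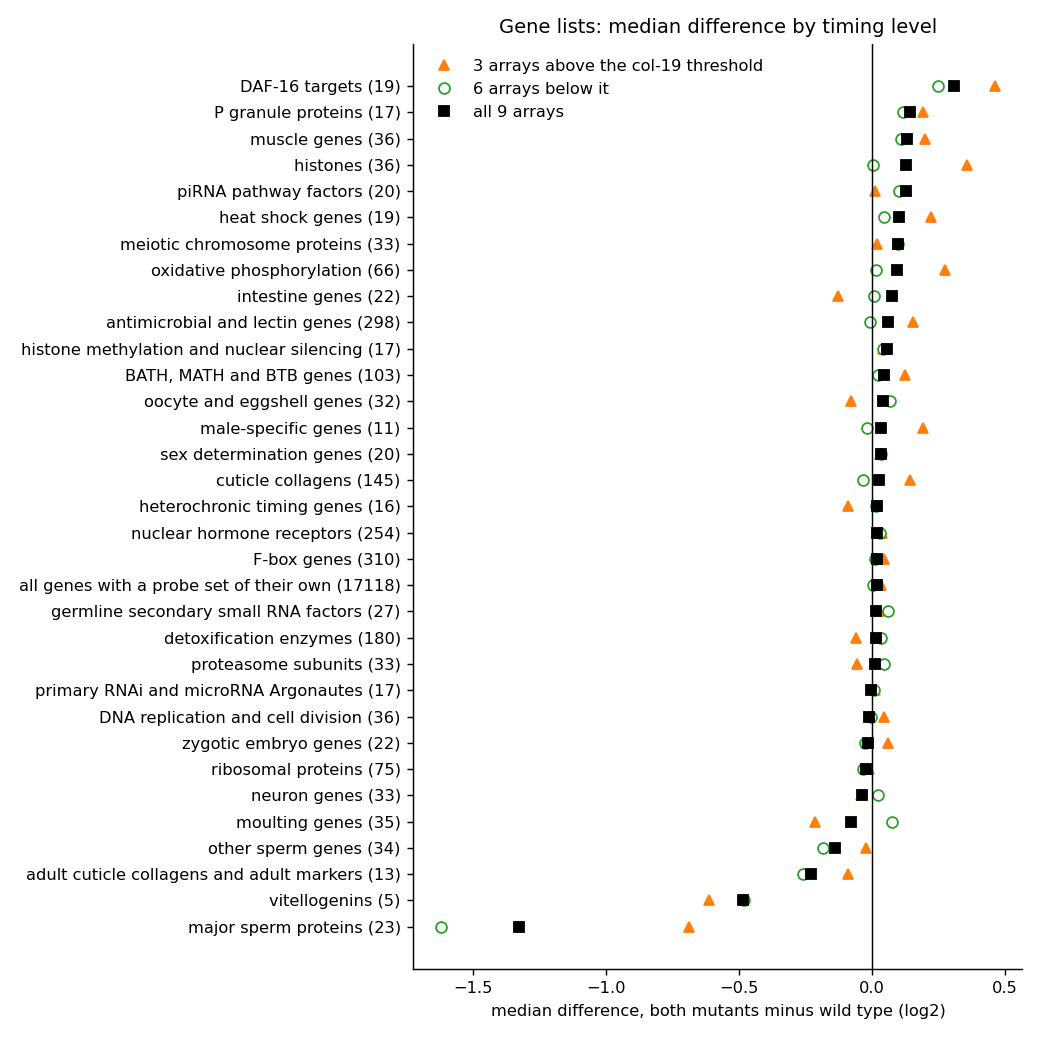
Median difference of both mutants from wild type (log2) for each gene list, over all 9 arrays (black squares), the 3 arrays above the col-19 threshold (orange triangles) and the 6 below it (green circles), with the number of genes in parentheses. DAF-16 targets (0.31) were highest and major sperm proteins (-1.33) lowest.

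Of the somatic tissue lists, 32 of 36 muscle genes were positive with a median of 0.13 and 5 at an unadjusted p under 0.05. That count was 16 without wild-type replicate 1, 1 without wild-type replicate 2, and 2 without wild-type replicate 3 or without n4503 nDf57 replicate 1. The 5 included tni-3, a troponin I, at 0.66 ± 0.18, unc-54, the major muscle myosin heavy chain, at 0.54, and the myosin light chains mlc-3 at 0.42 and mlc-2 at 0.28. The tni-3 value was 0.88 without wild-type replicate 1 and 0.50 without wild-type replicate 2. The 22 intestine genes had 3 higher and 2 lower genes at that level, among them the cathepsin B-like proteases cpr-5 at 1.13 and cpr-4 at 0.96 as well as lys-4. The 33 neuron genes had a median of -0.04 and 1 lower gene, the neuropeptide nlp-12, at -0.52 ± 0.18. The 11 male-specific genes had a median of 0.03 and 0 at that level.

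Defence and detoxification genes had members on both sides. Of 298 antimicrobial and lectin genes 15 higher and 9 lower had an unadjusted p under 0.05 (8.05%), including clec-47, a C-type lectin, at 1.31 and irg-3, an infection response gene, at -1.31. Without wild-type replicate 1 the counts were 15 higher and 22 lower. Of 180 detoxification enzymes 10 higher and 16 lower were at that level (14.4%), with ugt-64 at 0.62, ugt-29 at 0.56, ugt-39 at -0.72 and ugt-5 at -0.81. The 16 lower ones were 6 without wild-type replicate 2 or without n4503 nDf57 replicate 1, 9 without n4357 n4358 replicate 3, and 10 without n4357 n4358 replicate 1. The 19 heat shock genes had a median of 0.10, with sip-1 higher and hsp-17 at -0.62. The 254 nuclear hormone receptors had a median of 0.02, with 3 higher and 6 lower genes at that level, or 7 and 7 without wild-type replicate 1 and 1 and 4 without wild-type replicate 2.

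Housekeeping groups had medians from -0.02 to 0.13. Of 66 oxidative phosphorylation genes 53 were positive with a median of 0.09, which was 0.02 to 0.14 with 1 array left out. It was 0.27 above the threshold, where there was 1 wild-type array, and 0.016 below it. The 2 higher genes at an unadjusted p under 0.05 became 13 without wild-type replicate 1, 5 without n4503 nDf57 replicate 3, and 0 without wild-type replicate 2 or 3 or n4503 nDf57 replicate 1. The cytochrome c gene cyc-2.2 read 5.40, 5.97 and 5.98 in wild type, 5.16, 3.39 and 4.33 in the n4357 n4358 strain and 3.63, 4.23 and 4.01 in n4503 nDf57. All mutant arrays lay below wild type, with n4357 n4358 replicate 1 the nearest, and the difference was -1.66 ± 0.35 (adjusted p = 0.473). The 75 ribosomal protein genes had a median of -0.02 with 57 negative, the 33 proteasome subunits one of 0.01, and the 36 genes of DNA replication or cell division one of -0.01. The 36 histones had a median of 0.13, which was 0.36 above the threshold and 0.004 below it, and 10 of them were higher at an unadjusted p under 0.05 without wild-type replicate 1 against 0 with all 9 arrays.

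Each strain was also set against wild type in the same fit, so the comparisons share the wild-type arrays. For n4357 n4358, 0 probe sets were called, and 879 higher (3.9%) and 1037 lower (4.6%) had an unadjusted p under 0.05 (8.5% in all). These counts were 366 and 386 without wild-type replicate 2, 549 and 725 without wild-type replicate 3, and 1424 and 1835 without wild-type replicate 1. For n4503 nDf57, bath-45 was the 1 probe set called (0.00443%), with an adjusted p of 0.0254, and 717 higher (3.18%) and 494 lower (2.19%) had an unadjusted p under 0.05 (5.37% in all). Between the strains 0 were called and 1414 had an unadjusted p under 0.05 (6.27%). That number was 623 without n4503 nDf57 replicate 3, below the 1127 of an even spread, and 1992 without wild-type replicate 2. F32D8.12 had the largest strain difference among the genes named above, 1.23, with an adjusted p of 0.373.

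Whether the mutant difference itself varied with timing level was tested as an interaction. There were 22 probe sets with an adjusted p under 0.05 (0.0976%), 21 of them (0.0931%) with a lower mutant difference above the threshold and 1 with a higher one, and 2234 had an unadjusted p under 0.05 (9.91%). Every such value rests on the 1 wild-type array above the threshold. In 10 of the 22 that array had shifted more than the mutants' arrays had, and in 12 the mutants' arrays had shifted more. bath-45 and the 20 genes with the smallest p-values were not among them. That is in part what a small p selects, since a difference that varies between levels widens the residual spread of the main fit. Restricted to the 6 arrays below the threshold, limma called 0 probe sets, with 1022 at an unadjusted p under 0.05 (4.53%).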

How the data were processed

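Biotin-labelled RNA of whole young adult animals was hybridised to Affymetrix arrays, 1 sample each, per the labels. The authors deposited log2 levels per probe set, made with RMA, and the authors also used limma, per the submitters' processing notes. The sources used here give no tool versions and no array weighting or blocking. RMA equalises array distributions, so a shift common to most genes is removed and low levels are compressed. The number of arrays, not a depth, limits the precision.

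Of 22625 probe sets 77 controls were left out, leaving 22548. Of these, 20766 name 1 gene (17118 genes), 887 several and 895 none, in the probe annotation given. Of the first kind 20701 were found in the RefSeq gene table (WBcel235) and 65 were not. The 6711 probe sets whose names mark them as open to several genes were kept.

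A mean per group and the timing factor were fitted to all 9 arrays with limma 3.58.1 (statmod 1.5.0, R 4.3.3), with 5 residual and 3.12 prior degrees of freedom. The contrast was the unweighted mean of both strains minus wild type. Benjamini-Hochberg adjustment ran over all 22548, with a threshold of 0.05. The timing level was the col-19 level above or below 5.5. The interaction was tested in a second fit. For single genes a two-sided exact permutation within timing levels was added. The scripts were tested on simulated data. Tables and figures used Python 3.11.15, pandas 2.3.3, numpy 2.4.6 and matplotlib 3.10.9.

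Named genes were bath-45, xol-1, prg-1 and prg-2, probe sets past the threshold, the 10 genes with the smallest p on each side, and the member with the smallest p of each of 32 lists. Genes with an unadjusted p under 0.001 whose p fell most on adding the timing factor were named too. Other list members with an unadjusted p under 0.05, and the wago-1, hrde-1, sod-3 and hsp-12.6 values, were chosen after their values were seen. The members, lists and rules were chosen with earlier results of these data known. Alternatives were no timing factor, col-19 as a continuous covariate, either timing level alone, 1 pooled mutant group, a replicate block, array weights, trended and robust variance, other scalings, probe set filters and leaving out each array.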

Additional observations from a re-analysis of the deposited data

Results flagged for a closer look

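For 22 probe sets the mutant minus wild-type difference was not the same above and below the col-19 threshold (adjusted p under 0.05 for the interaction in limma). The values below are the difference above the threshold minus the difference below it, in log2, and each rests on wild-type replicate 2 as the 1 wild-type array above. No explanation for them was tested.

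In 10 of them wild-type replicate 2 stood apart from the other wild-type arrays by more than the mutants' arrays did from theirs. The values were -2.998 for H20E11.2, -1.75 for H20E11.3, -2.59 for F01D5.3, -2.31 for C50F7.9, -2.21 for T22B7.7, -2.04 for T02C1.1, -1.89 for E03H4.4, -1.66 for F21G4.3 and -1.42 for the nuclear hormone receptor gene nhr-12. F01D5.3 read 10.32 on that array and 7.28 to 8.10 on all others. The fatty acyl-CoA synthetase gene acs-1 had the opposite sign, 1.49, and read 6.55 on that array and 7.87 to 8.39 on the others.

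In the other 12 the mutants' arrays above the threshold, n4357 n4358 replicate 3 and n4503 nDf57 replicate 1, had shifted more than wild-type replicate 2. The values were -2.86 for C49H3.3, -2.60 for the glutathione peroxidase gene gpx-1, -2.42 for F10E9.4, -2.24 for C15C8.4, -2.204 for vps-60, -2.05 for trmt-10A, -1.80 for the lipid-binding protein gene lbp-7, -1.66 for F01D4.5, -1.63 for erh-1, -1.61 for C14H10.2, -1.56 for hmg-5 and -1.27 for ZK1248.15. C49H3.3 read 7.50 and 7.25 on the mutants' arrays above the threshold and 9.98 to 10.49 on the other 7 arrays, wild-type replicate 2 included.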

How the results depend on the processing

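The 1 higher call, bath-45, became 0 without the timing factor, with col-19 as a continuous covariate, on the 6 arrays below the threshold, with 1 pooled mutant group (adjusted p = 0.102), with the replicate block (adjusted p = 0.242) and at an adjusted p under 0.01, and its adjusted p passed in 10 of 23 alternatives. Array weights gave 12 higher and 4 lower calls, and 1 pooled group gave 2 lower. Leaving out each array gave 0 to 2 higher calls, the 2 without n4357 n4358 replicate 3. For n4357 n4358 array weights gave 1 higher and 2 lower call in place of 0. For n4503 nDf57 the 1 higher call became 0 without the timing factor or with the replicate block, 24 with array weights (and 5 lower in place of 0), and 0 to 6 when an array was left out, the 6 without n4357 n4358 replicate 3. The 22 interaction calls were 13 with trended, robust variance and 60 with a mean per strain and level. The sign of xol-1 turned to -0.003 without wild-type replicate 3, -0.004 without n4357 n4358 replicate 2 and -0.016 without n4503 nDf57 replicate 1 (highest 0.073, without n4357 n4358 replicate 3), and col-181 turned to 0.0795 with col-19 as a covariate. The cause of these changes was not tested. The deviations of same-numbered arrays correlated at -0.60 to 0.40, and at -0.32 to 0.54 after timing adjustment. After that adjustment 5 of 9 such pairs were over 0.1, against 6 of 18 differently numbered pairs. Deviations from means of 3 arrays must take both signs, so these correlations cannot decide whether replicate numbers pair the arrays. The fit with the replicate block had 3 residual degrees of freedom. The 3 arrays above the threshold gave values with no test. Only 3 arrays per group, and 1 wild-type array above the threshold, limit what these fits can resolve, and low levels such as that of xol-1 are compressed.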

Other observations

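The gene with the largest positive difference in the whole table was pud-4, whose protein is known to be abundant in daf-2 insulin receptor mutants. It read 4.31, 7.12 and 4.08 in wild type, 7.86, 8.60 and 7.66 in the n4357 n4358 strain and 8.74, 6.19 and 7.15 in n4503 nDf57. Wild-type replicate 2 was above n4503 nDf57 replicate 2, and within timing levels the mutants lay above wild type. The timing-adjusted difference was 2.53 ± 0.57 (limma, adjusted p = 0.541), 1.08 above the col-19 threshold and 3.26 below it. It was named here after its value was seen.

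Array weights gave 16 calls where equal weights gave 1. Among them were both brighter ech-1.1 probe sets at -0.78 and -0.99, both sip-1 probe sets at 1.71 and 1.74, pud-4 at 3.11, T01D3.6 at 0.99, asns-2 at 1.27, T11F9.10 at 0.80 and M01G12.9 at -0.83. The weights ranged from 0.197 for n4357 n4358 replicate 3 to 3.22 for wild-type replicate 3, so wild type then rested mostly on 1 array. W01F3.2 was called by 2 probe sets, at 1.31 and 1.26, against 1.01 and 0.92 with equal weights.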
